A study of Mus musculus with 4 samples.

Results

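The genes described here encode the subunits of ion channels, the membrane proteins that let potassium, calcium, sodium or chloride ions pass. They were chosen by symbol and level. The symbols were those of calcium (Cacna, Cacnb, Cacng), potassium (Kcn), sodium (Scn), TRP (Trpc, Trpm and Trpv only), glutamate receptor, P2X, chloride (Clcn), HCN and Orai genes. Their mean normalized count over the 4 libraries had to be at least 20. Of 206 matching symbols among 49490 genes in the table, 71 met that mean, 65 lay above 0 but under it and 70 were at 0 in every library. The choice used the overall level and not the difference between groups. It still favoured genes high in 1 group, since 9 of the 71 reached 20 through the libraries labelled knockout alone (P2rx5, Gria3, Grin3b, Kcnj2, Kcnj13, Scn3a, Cacna1e, Kcnd1 and Kcnh3) and 1 through those labelled WT alone (Kcns1). Of the 71, 67 encode a channel subunit. The other 4 share only the symbol: Trpc4ap, which encodes a protein named for its association with a TRP channel, Grina, a membrane protein named for its similarity to a glutamate receptor part, Kcnq1ot1, a long antisense RNA at an imprinted locus, and Trpc5os, an antisense transcript.

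RNA was read from mouse CD8+ T cells, the T lymphocytes that kill target cells. They came from lymph nodes and spleens and were activated in vitro. The study set 2 libraries labelled WT, given in the design as Irf8fl/fl (an allele flanked by Cre target sites), against 2 labelled Irf8 knockout, given as Irf8-/-, to find genes controlled by the transcription factor IRF8. Both groups were activated. The Cre driver, the number and age of the animals, and the activating agent and its duration were not given in the sources used here. Nothing states that libraries sharing a label stem from different animals, so p-values measure only the spread between these libraries.

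In T cells, potassium channels keep the membrane potential negative, and that potential draws calcium in. Receptor signalling empties the calcium store of the endoplasmic reticulum, STIM proteins there sense the loss and open Orai pores in the plasma membrane, and the calcium that enters switches on calcineurin and the NFAT transcription factors. P2X receptors add cation entry when extracellular ATP binds. Voltage-gated calcium and sodium channels and glutamate receptors are best known from nerve and muscle.

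The libraries held 58899365 and 59724952 recovered reads (labelled WT) and 59091255 and 59489280 (labelled knockout). Irf8 itself went against its label: its normalized count was 6364 and 6081 in the WT-labelled pair and 89508 and 90222 in the pair labelled knockout, 14.4-fold higher (log2 difference 3.85, SE 0.04, limma adjusted p = 4.32e-08), so groups are named below only as labelled, and every direction rests on those labels. Gene-level counts include reads from exons outside a deleted part, which the sources used here do not locate. The cause of the higher Irf8 count was not tested. T cell markers were abundant in every library, but 13 of 13 were lower in the libraries labelled knockout, with a summed normalized count of 634862 to 644177 against 402532 to 415555. Plasmacytoid dendritic cell markers were higher for 13 of 13 genes, with a sum of 17967 to 18033 against 292560 to 293612 and Siglech 418-fold higher. Conventional dendritic cell markers were higher for 8 of 9 (13882 to 14268 against 35892 to 36105), neutrophil markers for 7 of 7 (102 to 133 against 2732 to 2780, with Elane, Mpo and Camp at 0 in both libraries labelled WT) and B cell markers for 2 of 7 (293 to 312 against 1422 to 1429). Macrophage markers were mixed, 1 higher and 7 lower of 11, with a sum of 17259 to 18943 against 22071 to 22503 and Marco at 0 in the libraries labelled knockout. Natural killer cell markers were lower for 2 of 4 (16579 to 16753 against 11263 to 11267). Platelet markers were split, 1 higher and 1 lower of 3, and 0 of 5 erythroid markers were called. Beside the 28.6% of B cell markers called higher, 19.9% of all genes tested were called higher and 13.4% lower. The part of these marker differences in the channel differences below was not tested. In bulk RNA, a change in the number of cells of a type and a change in RNA per cell cannot be told apart.

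With a limma adjusted p under 0.05 as the call, 30 of the 71 genes rose and 5 fell in the libraries labelled knockout, and 36 were not called. That is 49.3% called, beside 36.3% of the 16201 genes tested with a mean of at least 20 (21.2% higher, 15.1% lower) and 33.4% of all 18378 genes tested (19.9% higher, 13.4% lower). Among the 61 genes at 20 or more in both groups, 24 rose and 5 fell, or 47.5%, beside 35.2% of all genes chosen that way (19.2% higher, 16.0% lower). The median log2 difference was 0.47 over the 71 genes, 0.33 over those 61 and 0.02 over all genes tested. The groups did not overlap for 56 of the 71 genes (78.9%), where 71.2% of genes with a mean of at least 20, 70.2% of those at 20 in both groups and 68.8% of all tested did not overlap. Called increases with a log2 difference above 2 (4-fold) numbered 11. Of these, 5 were among the 9 genes that met the mean through the libraries labelled knockout alone. By the same measure, 6.1% of genes with a mean of at least 20, 3.44% of those at 20 in both groups and 6.58% of all tested rose that far. The fold given below for Trpm2 is a ratio of mean normalized counts, and its log2 difference of 1.99 leaves it outside the 11. None of the 5 decreases exceeded 2-fold.

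Centring each library on its median gene moved the all-gene median from 0.02 to -0.28 and the split of calls from 30 higher and 5 lower to 20 and 15. Fits without knockout replicate 1 or 2 called fewer genes, both among the 71 and among all genes tested. The median log2 difference over the 71 genes was 0.42 without replicate 1 and 0.41 without replicate 2. Over all genes tested it was 0.03 and 0.02. The calls that held under all 14 alternative settings numbered 13: Cacna1e, Scn3a, Cacna2d4, Cacna1d, P2rx7, Clcn2, Kcne4, Cacnb3, Trpm2, Clcn5, P2rx4 and Orai3 were higher and Kcnn4 was lower. How many of all genes tested held in the same way was not counted, so 13 has no share to stand beside. Cacna1e and Scn3a met the mean for the choice only through the libraries labelled knockout.

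**Figure D1:**
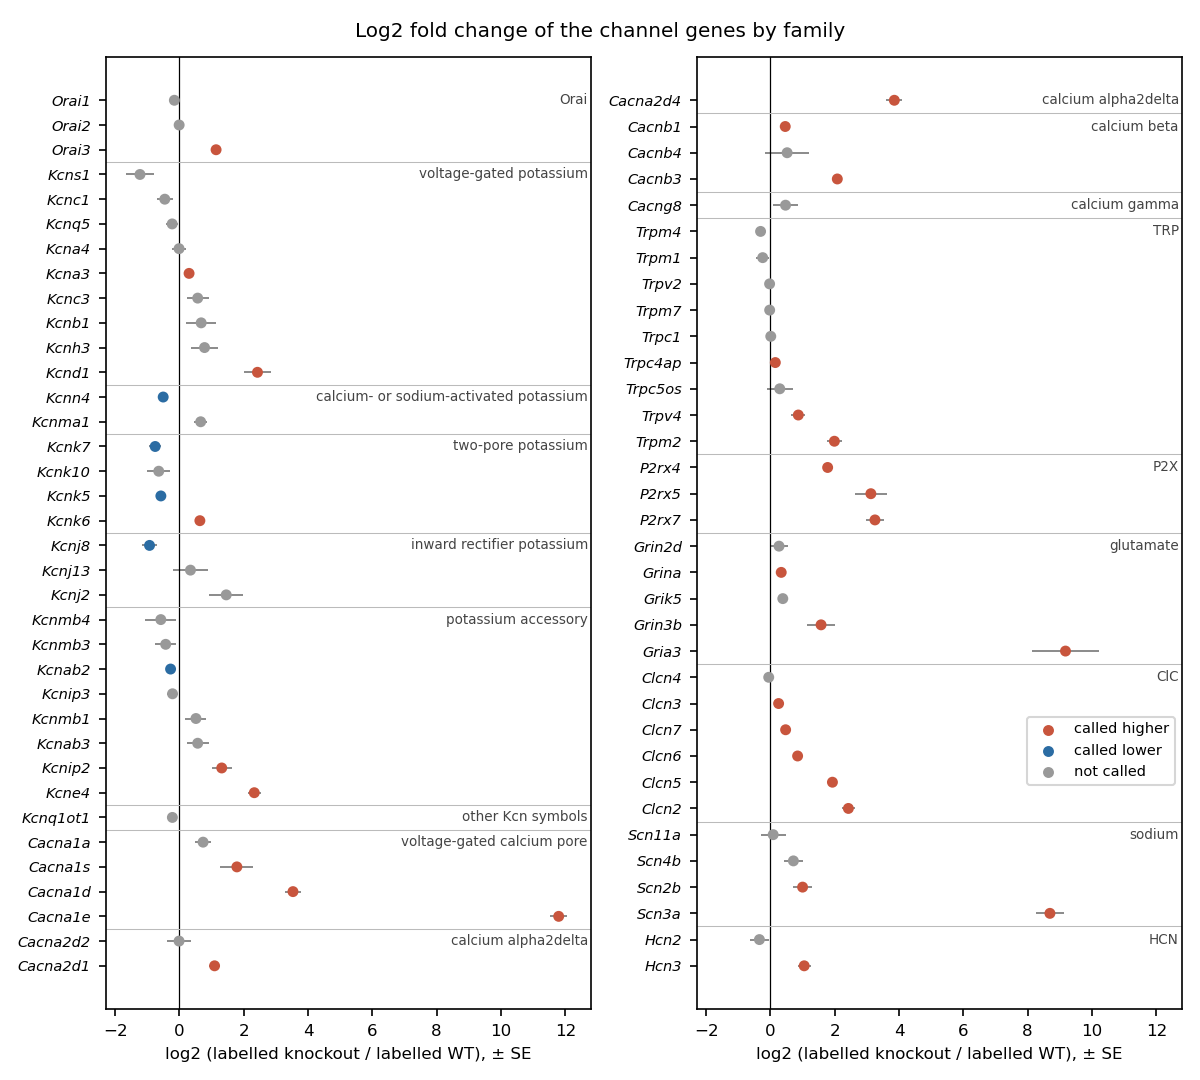
Log2 difference (labelled knockout over labelled WT, on the log2 of normalized count + 1) with its SE for 70 of the 71 genes, grouped by family; colour gives the limma call. The 5 called decreases, Kcnn4, Kcnk5, Kcnk7, Kcnj8 and Kcnab2, all carry Kcn symbols, and no family without Kcn symbols holds a called decrease.

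Upstream sequence is shown for 3 genes whose calls held under all 14 settings, Orai3 and P2rx4 among those that rose and Kcnn4, the one that fell, because IRF8 binds DNA at interferon-type elements and these are the letters such a search reads. Each run is 280 bases of RefSeq sequence (build GRCm38.p6, plus strand, 5′ to 3′), 250 before the start site and 30 from it: chr7:127769565-127769844 for Orai3, chr5:122707294-122707573 for P2rx4 and chr7:24370013-24370292 for Kcnn4. Capitals mark a match to 1 of 3 motifs.
Orai3: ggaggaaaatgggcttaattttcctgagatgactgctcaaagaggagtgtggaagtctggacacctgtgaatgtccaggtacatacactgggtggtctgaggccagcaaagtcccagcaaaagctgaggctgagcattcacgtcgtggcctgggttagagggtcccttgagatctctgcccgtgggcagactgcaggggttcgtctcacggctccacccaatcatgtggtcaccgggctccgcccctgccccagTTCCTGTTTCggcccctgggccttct
P2rx4: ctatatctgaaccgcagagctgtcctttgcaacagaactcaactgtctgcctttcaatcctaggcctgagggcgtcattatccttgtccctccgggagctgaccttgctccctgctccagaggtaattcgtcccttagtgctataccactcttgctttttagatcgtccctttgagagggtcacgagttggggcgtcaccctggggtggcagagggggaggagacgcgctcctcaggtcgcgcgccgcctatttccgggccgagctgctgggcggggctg
Kcnn4: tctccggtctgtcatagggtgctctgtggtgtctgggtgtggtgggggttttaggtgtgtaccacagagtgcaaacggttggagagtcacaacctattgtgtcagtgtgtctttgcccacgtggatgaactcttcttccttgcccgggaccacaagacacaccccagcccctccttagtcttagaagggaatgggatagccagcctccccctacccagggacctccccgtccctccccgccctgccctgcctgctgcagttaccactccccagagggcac
The motifs were searched on both strands over windows of 300 bases (250 before and 50 after the start). They were the interferon-stimulated response element GAAANNGAAA, the Ets-IRF element GGAANNGAAA and the IRF-Ets element GAAANNGGAA. They share most letters, but 1 stretch of motif length cannot match more than 1 of them. Stretches that overlap in part can each match and share bases. A window can hold matches to more than 1. The Orai3 match, at bases 255 to 264 of its run, reads TTCCTGTTTC and is the IRF-Ets element on the minus strand. No match was found in the P2rx4 and Kcnn4 windows. RefSeq windows were at hand for 56 of the 71 genes, 75 windows in all. The IRF-Ets element lay in 5 of these (6.67%; Orai3, Cacna1d, Cacnb4, Grik5 and Kcnq5, of which Orai3 and Cacna1d were called) beside 2.80% of all 32851 windows. The interferon-stimulated element lay in 0 of 75 beside 3.44%, and the Ets-IRF element in 0 beside 2.72%. A match to any of the 3 was in 6.67% of these windows and 8.37% of all. The letters are a description of these windows and say nothing on binding.

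The store-operated pores are the 3 Orai genes, and 1 of them rose (33.3% called, near the 36.3% of genes with a mean of at least 20). Orai3 (ENSMUSG00000043964.14, chromosome 7, 127769815 to 127775150, plus strand; all gene coordinates are GENCODE M21 on GRCm38) encodes a pore subunit that can join Orai1 in mixed channels. Its normalized count stood at 2562 and 2189 in the WT-labelled pair against 5286 and 5148 in the pair labelled knockout (values below keep this order). Both libraries labelled knockout lay above both labelled WT, and the mean rose 2.196-fold, from 2375 ± 263 to 5217 ± 97.6 (SD, n = 2 each; log2 difference 1.14, SE 0.08, limma adjusted p = 1.35e-04). Orai1, the main pore of the calcium-release-activated current in T cells, stood at 5449 and 6085 against 5051 and 5268. Its groups did not overlap, but the log2 difference of -0.16 (SE 0.06) did not pass (adjusted p = 0.108); it was called lower with median centring, with upper-quartile factors and without WT replicate 1. Orai2, a subunit known to damp that current in mouse T cells, was at 6668 and 6435 against 6359 and 6653. These values overlapped, with a log2 difference of -0.01 (SE 0.05, adjusted p = 0.889), though the gene too was called lower with median centring.

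Set per kilobase of exon, which allows levels of different genes to be compared, Orai3 made up 25.6% and 21.6% of the 3 genes' summed level against 43.2% and 41.5%. The Orai1 share was 53.4% ± 3.65 against 39.1% ± 0.78, and the Orai2 share 22.9% ± 0.80 against 18.6% ± 0.42 (SD, n = 2 each). The gene leading the family per length was thus Orai1 in the libraries labelled WT and Orai3 in those labelled knockout. With 2 libraries a group, an exact two-sided permutation test of a single value cannot go below p = 0.333, so no test is given for shares.

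**Figure D2:**
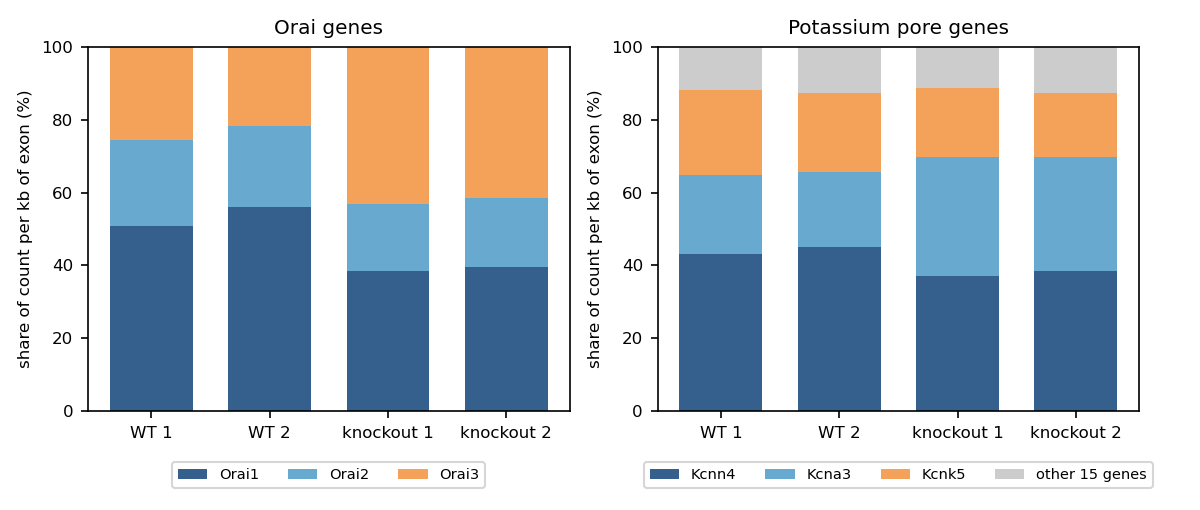
Share (%) of the summed normalized count per kilobase of exon held by each Orai gene, and by Kcnn4, Kcna3 and Kcnk5 among the 18 potassium pore genes, in each of the 4 libraries. The Orai3 share is 21.6% to 25.6% in the libraries labelled WT and 41.5% to 43.2% in those labelled knockout, and the Kcna3 share is also larger in the latter.

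Of 18 potassium pore genes, the largest group here, 3 rose, 4 fell and 11 were not called (38.9% called, near the 36.3% of genes with a mean of at least 20). Kcnn4 (ENSMUSG00000054342.8, chromosome 7, 24370263 to 24386690, plus strand) encodes the calcium-activated channel that, with Kcna3, carries most potassium current in activated T cells. Its normalized count was 10845 and 11095 against 7522 and 7926. The groups lay well apart, and the mean went from 10970 ± 177 to 7724 ± 286 (log2 difference -0.51, SE 0.04, adjusted p = 2.87e-04). Kcna3 (ENSMUSG00000047959.4, chromosome 3, 107036169 to 107038070, plus strand), the voltage-gated channel that sets the resting potential of T cells, was at 2040 and 1903 against 2446 and 2403. It rose by 0.30 on the log2 scale (SE 0.06, adjusted p = 0.0145), a difference that became -0.0017 with median centring and lost its call without knockout replicate 1 (adjusted p = 0.133) or 2 (0.121). Among the 18 pore genes the share of the per-length level was 44.0% ± 1.29 against 37.8% ± 0.85 for Kcnn4 and 21.3% ± 0.76 against 31.9% ± 0.86 for Kcna3. Kcnn4 held the largest share in every library.

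The two-pore (Kcnk) channels carry background potassium current and split in direction. Kcnk5, which acts in cell volume control, had 3884 and 3558 against 2569 and 2411, a log2 difference of -0.58 (SE 0.07, adjusted p = 1.14e-03, and 0.0521 without knockout replicate 2). Kcnk7, a family member with no clear current of its own, had 402 and 469 against 223 and 295 (-0.76, SE 0.18, adjusted p = 0.0205, and 0.147 and 0.0673 without knockout replicate 1 and 2). Kcnk6 went the other way, 306 and 356 against 476 and 554 (0.63, SE 0.14, adjusted p = 0.0171, and 0.0908 and 0.164 without them, and 0.0900 with median centring). Groups did not overlap for any of the 4 Kcnk genes, as held for 71.2% of genes with a mean of at least 20. Kcnk10 was not called (-0.64, SE 0.35). Kcnj8, the pore of an ATP-sensitive inward rectifier best known in vascular muscle, had 385 and 274 against 151 and 191 (-0.93, SE 0.22, adjusted p = 0.0207, and 0.186 and 0.113). Its libraries labelled WT were far apart, though both stood above both labelled knockout. Kcnd1, an A-type channel, had 10.2 and 18.4 against 92.1 and 66.2 and was 5.54-fold higher (adjusted p = 0.00592, and 0.114 and 0.0818). The other pore genes were not called, among them Kcnma1 (81.4 and 84.8 against 135 and 128) and Kcns1 (31.5 and 36.8 against 16.7 and 11.7). Kcnma1 was called higher with a pseudocount of 10 and with a minimum of 50. Kcns1 and Kcnc1 were called lower with median centring.

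Accessory potassium subunits tune pores made by other genes. Of 8, 2 rose, 1 fell and 5 were not called (37.5% called, near the 36.3% of genes with a mean of at least 20). Kcnab2, a beta subunit of Kcna-type channels, was the highest of them per length and had 12521 and 12785 against 10254 and 10641 (-0.28, SE 0.04, adjusted p = 0.00238, and 0.0641 without knockout replicate 1). Kcne4, a single-pass subunit known to inhibit Kcna3 channels, had 77.3 and 104 against 445 and 464. The groups were widely separated, at 90.8 ± 19.0 and 455 ± 13.8, 5.01-fold higher (log2 difference 2.33, SE 0.20, adjusted p = 2.79e-04). Kcnip2, a calcium-binding partner of Kcnd channels, had 51.9 and 34.7 against 121 and 94.4 (1.31, SE 0.31, adjusted p = 0.0197, and 0.177 and 0.118 without knockout replicate 1 and 2). The long RNA Kcnq1ot1, with 2890 and 2785 against 2301 and 2577, was not called (-0.22, SE 0.07, adjusted p = 0.0612); 6 of the 14 alternatives called it lower (median centring, a pseudocount of 10, a minimum of 50, both edgeR fits and DESeq2).

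Of 11 voltage-gated calcium channel genes, 7 rose, 0 fell and 4 were not called (63.6% called, beside 36.3% of genes with a mean of at least 20). Cacna1e, 1 of the 7, met that mean only through the libraries labelled knockout. Cacna1e (ENSMUSG00000004110.16, chromosome 1, 154390731 to 154884501, minus strand), the R-type pore, had no read (0 and 0) in the WT-labelled pair and normalized counts of 3691 and 3418 in the other. Against the 3 reads per library that a count of 0 allows, it was at least 1162-fold higher (adjusted p = 9.86e-07). Cacna1d (ENSMUSG00000015968.17, chromosome 14, 30039939 to 30491455, minus strand), an L-type pore, had 33.6 and 48.0 against 532 and 423, 11.7-fold higher (log2 difference 3.53, SE 0.25, adjusted p = 1.28e-04). In both genes the groups lay further apart than the replicates. The Cacna1d exons share 589 bases (4.67% of their length) with Chdh on the opposite strand, which had 87.5 and 65.4 against 2529 and 2414, and the part of such reads in the Cacna1d count was not tested. Cacna1s, the L-type pore of skeletal muscle, had 20.4 and 58.2 against 98.0 and 151 (1.79, SE 0.51, adjusted p = 0.0401, and 0.179 and 0.297 without knockout replicate 1 and 2). Its call was also lost with a pseudocount of 0.1, without the filter and without robust variance, and 19.98% of its exon length is shared with the opposite-strand gene Gm37759, which had 23.4 and 28.6 against 218 and 203. Cacna1a, the P/Q-type pore, had 147 and 113 against 177 and 261 and was not called (0.73, SE 0.25, adjusted p = 0.0696, and 0.0441 with a minimum of 50 and 0.0259 without WT replicate 1). Cacna1e held 0% of the 4 pores' per-length level in the libraries labelled WT and 64.9% ± 2.67 in those labelled knockout.

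Of the 7 accessory subunits, which help bring these pores to the membrane, 4 rose and 3 were not called. Among genes with a mean of at least 20, 36.3% were called and 21.2% were called higher. Cacnb3 (ENSMUSG00000003352.14, chromosome 15, 98630840 to 98644529, plus strand), a cytoplasmic beta subunit, had the highest level per kilobase of exon of the 11 and counts of 682 and 654 against 2733 and 2918. It rose 4.23-fold, from 668 ± 20.03 to 2825 ± 131 (log2 difference 2.08, SE 0.08, adjusted p = 8.07e-06). Cacna2d4, an extracellular alpha2delta subunit, had 21.4 and 24.5 against 305 and 388, 15.1-fold higher (3.85, SE 0.24, adjusted p = 7.90e-05). Groups of both genes were far apart. Cacna2d1, another alpha2delta subunit, had 154 and 160 against 361 and 312 (1.09, SE 0.16, adjusted p = 0.00288, and 0.0650 without knockout replicate 1). Cacnb1, a beta subunit best known in skeletal muscle, had 280 and 259 against 358 and 384 (0.46, SE 0.13, adjusted p = 0.0422), and its call was lost without either knockout replicate, without WT replicate 2 (adjusted p = 0.0902), with median centring, without the filter (0.0586), with upper-quartile factors (0.0751), with DESeq2 (0.0936) and with the replicate block (0.0786). Cacna2d2, Cacnb4 and Cacng8 were not called, with group means from 26.0 to 70.3.

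**Figure D3:**
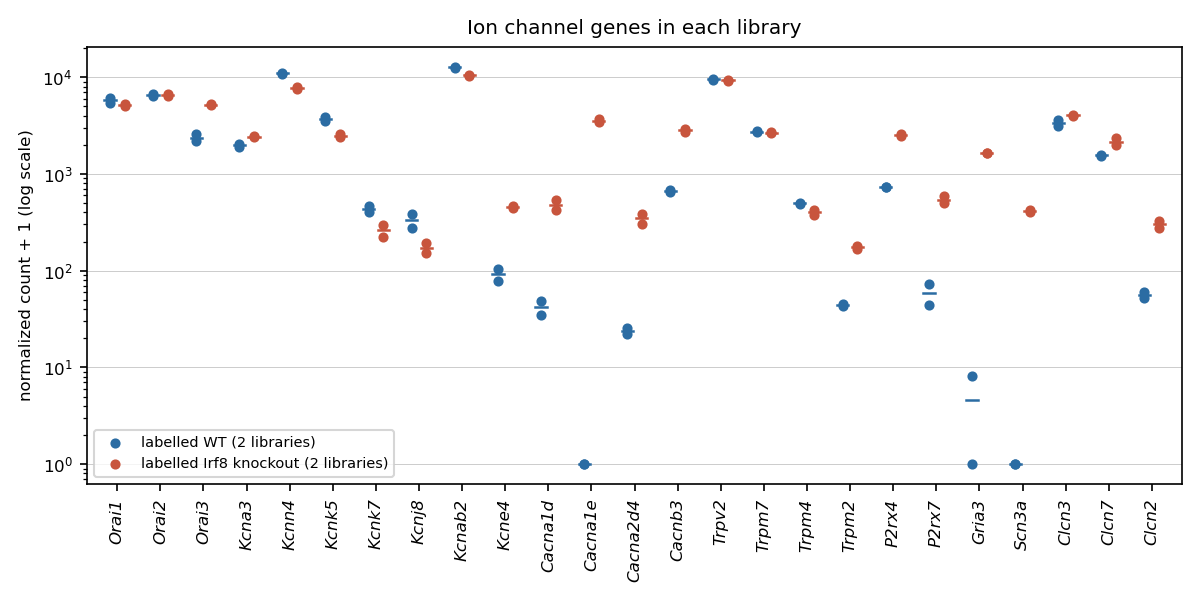
Normalized count + 1 (log axis) of selected channel genes in each of the 4 libraries, 1 point per library, coloured by label, with a short line at the group mean. With 0 reads in the WT-labelled pair, Cacna1e and Scn3a sit there at 1 on this axis, and the Orai3, P2rx4, P2rx7 and Cacnb3 points of the 2 groups do not overlap.

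The 3 P2X genes with a mean of at least 20 were called higher (21.2% of genes with that mean were), although P2rx5 met the mean only through the libraries labelled knockout, where it is high. P2rx4 (ENSMUSG00000029470.15, chromosome 5, 122707544 to 122729738, plus strand), an ATP-gated cation channel found at the surface and in lysosomes, had 739 and 732 against 2465 and 2587. Its replicates lay close together, at 736 ± 4.74 and 2526 ± 86.3, 3.43-fold higher (log2 difference 1.78, SE 0.07, adjusted p = 1.20e-05). P2rx7 (ENSMUSG00000029468.17, chromosome 5, 122643911 to 122691432, plus strand), which opens at high ATP and can lead to cell death, lies beside it on the same strand. It had 42.7 and 72.5 against 495 and 586, 9.38-fold higher (3.25, SE 0.28, adjusted p = 2.91e-04). P2rx5 stood at a few reads in the libraries labelled WT, 7.12 and 4.09 against 64.7 and 46.7 (3.12, SE 0.50, adjusted p = 0.00426, and 0.114 and 0.0844 without knockout replicate 1 and 2). Per kilobase of exon, P2rx4 was the highest of the 3 in both groups, at 105 against 360. Of the P2X genes under the mean, P2rx1 had 7.12 and 5.11 against 15.7 and 36.0 and was not called (adjusted p = 0.0727).

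The TRP channels with the highest levels per length did not pass the test. Trpv2 (ENSMUSG00000018507.16, chromosome 11, 62574486 to 62600515, plus strand), a cation channel of immune cells, had 9599 and 9394 against 9188 and 9453, overlapping groups (log2 difference -0.03, SE 0.04, adjusted p = 0.635). It made up 85.2% ± 0.19 and 84.4% ± 0.06 of the per-length level of the 7 chosen TRP channel genes (Trpc, Trpm and Trpv symbols). Trpm7, a magnesium-permeable channel joined to a kinase that lymphocytes need for growth, had 2682 and 2762 against 2629 and 2722 (-0.03, SE 0.06, adjusted p = 0.770). Trpm4, a sodium-conducting channel opened by calcium, had 499 and 492 against 376 and 425 (-0.31, SE 0.12, adjusted p = 0.102), without overlap. These 3 genes were called lower only with scalings that move all genes down, Trpv2 and Trpm7 with median centring and Trpm4 with that and upper-quartile factors. Trpc1 had 407 and 379 against 429 and 364 (0.01, SE 0.14), a difference that became -0.29 with median centring and -0.07 with upper-quartile factors.

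Of the 7 TRP channel genes among the chosen symbols, 2 rose and 0 fell (28.6% called, beside 36.3% of genes with a mean of at least 20). The 2 that rose had low levels per length, and Trpm1 and Trpc5os were not called. Trpa1, a TRP channel outside the chosen symbols, is given at the end. Trpm2, opened by ADP-ribose and oxidative stress, had 41.7 and 43.9 against 178 and 167, 4.04-fold higher (log2 difference 1.99, SE 0.22, adjusted p = 9.68e-04). Trpv4, opened by cell swelling and warmth, had 94.6 and 81.7 against 149 and 174 (0.87, SE 0.21, adjusted p = 0.0228), with its call lost under median centring and without knockout replicate 1 (0.109) or 2 (0.172). Trpc4ap, which is no channel, had 9466 and 9307 against 10482 and 10360, called higher by 0.15 (SE 0.04, adjusted p = 0.0218) and called lower, at -0.15, with median centring. Its call was lost without knockout replicate 1 (0.163) or 2 (0.141), with upper-quartile factors (0.224) and with the replicate block (0.0536).

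Glutamate receptor genes held 1 large increase. Gria3 (ENSMUSG00000001986.16, chromosome X, 41400854 to 41678601, plus strand), an AMPA receptor subunit, had 7 reads and 0 reads in the WT-labelled pair (normalized counts 7.12 and 0) and normalized counts of 1651 and 1645 in the other. The replicates labelled knockout were nearly equal. The log2 difference of 9.18 (SE 1.04, adjusted p = 0.00388) depends on the pseudocount, from 6.99 with 10 to 10.92 with 0.1, and the adjusted p was 0.0505 and 0.0533 without knockout replicate 1 and 2. Grin3b, an NMDA receptor subunit, had 9.16 and 10.2 against 31.4 and 30.2 (1.57, SE 0.45, adjusted p = 0.0388, and 0.208 and 0.198 without them, 0.0547 with median centring, 0.125 with DESeq2, 0.0510 without WT replicate 1 and 0.0673 with the replicate block). Of its exon length, 32.1% is shared with Tmem259 on the other strand, whose normalized count was between 2555 and 3498, and whether counting used strand was not given in the sources used here. Grik5 and Grin2d were not called. Grina, which is no receptor, was the highest of the 71 per length and had 15248 and 15423 against 19355 and 19317 (0.33, SE 0.03, adjusted p = 4.61e-04, and 0.466 with median centring).

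Of 6 ClC genes, 5 rose and 0 fell (83.3% called, beside 36.3% of genes with a mean of at least 20); with median centring 3 rose and Clcn4 fell. Clcn2, a plasma membrane chloride channel, had 50.9 and 59.2 against 325 and 274, 5.45-fold higher (log2 difference 2.42, SE 0.21, adjusted p = 3.04e-04). The others act as chloride-proton exchangers of endosomes and lysosomes. Clcn5 had 301 and 286 against 1104 and 1134, 3.81-fold higher (1.93, SE 0.10, adjusted p = 3.64e-05), with no overlap. Clcn6 had 460 and 509 against 904 and 835 (0.84, SE 0.11, adjusted p = 0.00165, and 0.0556 without knockout replicate 1), and Clcn7, the main lysosomal exchanger, 1525 and 1578 against 2337 and 1979 (0.47, SE 0.09, adjusted p = 0.00993, and 0.0873 without it and 0.160 with median centring). Those replicates labelled knockout were further apart than those labelled WT. Clcn3 had 3625 and 3139 against 4105 and 3937 (0.25, SE 0.08, adjusted p = 0.0491), a small difference that became -0.05 with median centring and lost its call without knockout replicate 1 (0.293) or 2 (0.217), or WT replicate 2 (0.0981), with a pseudocount of 0.1 (0.0577), without the filter (0.0952), without robust variance (0.0594) and with upper-quartile factors (0.113). Clcn4, the highest per kilobase of exon (585 against 563), had 5177 and 4860 against 4835 and 4826 and was not called (-0.05, SE 0.05), but was called lower with median centring (adjusted p = 0.00245). The largest fold differences in this family were in Clcn2 and Clcn5, the 2 genes with the lowest levels per kilobase, 9.14 against 49.8 and 25.6 against 97.7.

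Scn3a (ENSMUSG00000057182.14, chromosome 2, 65457118 to 65567627, minus strand), a voltage-gated sodium pore of developing neurons, had normalized counts of 0 and 0 against 420 and 405, at least 135-fold higher (adjusted p = 2.65e-05). Scn2b, an accessory beta subunit, had 59.0 and 60.2 against 95.0 and 152 (0.999, SE 0.29, adjusted p = 0.0421, and 0.0699 and 0.228 without knockout replicate 1 and 2, and 0.0501 without WT replicate 1). Its call was also lost with median centring (0.0878), without the filter (0.0739), without robust variance (0.0517), with DESeq2 (0.0517) and with the replicate block (0.0505). Its replicates labelled knockout were far apart. Scn4b and Scn11a were not called. Of the cation channels opened by hyperpolarization, Hcn3 had 78.4 and 76.6 against 153 and 170 (1.05, SE 0.20, adjusted p = 0.00943, and 0.0804 and 0.107), and Hcn2 was not called.

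Per kilobase of exon, the 5 highest levels in the libraries labelled WT were Grina at 7419, Orai1 at 2513, Kcnab2 at 2268, Kcnn4 at 2145 and Trpv2 at 2117 normalized counts. In the libraries labelled knockout they were Grina at 9355, Orai3 at 2437, Orai1 at 2248, Trpv2 at 2078 and Kcnab2 at 1873. Orai3 moved from rank 6 to rank 2 of the 71, while Cacna1e, whose exons span 25228 bases, reached 141 per kilobase and rank 21 despite its large count. The genes with the largest fold differences were therefore not the ones with the highest levels.

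**Figure D4:**
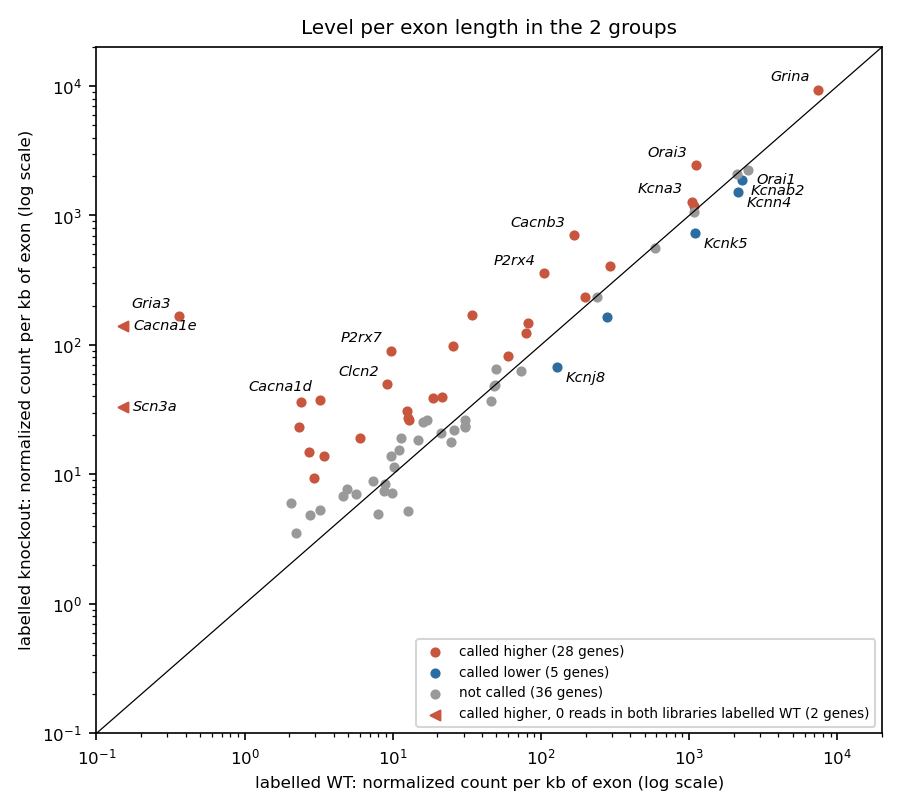
Normalized count per kilobase of exon (log axes) of the 71 genes, mean of the 2 libraries labelled WT (x) against mean of the 2 labelled knockout (y); the line marks equal levels and triangles mark genes with 0 reads in both libraries labelled WT. Grina, Orai1, Kcnab2 and Trpv2 lie close to the line at the top, and the genes far above it lie at low levels in the libraries labelled WT.

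The mean of 20 passed through a run of similar genes. Just inside lay Grin3b (20.2), Kcnj13 (21.2) and Kcnh3 (21.8), and just outside Grik4 (19.0), Kcnk3 (16.4) and Cacnb2 (16.1). Kcnj13 had 12.2 and 25.5 against 29.4 and 17.5, with 49.1% of its exon length shared with Gigyf2 on the other strand. Cacnb2, a calcium beta subunit, had 0 and 0 against 28.4 and 36.0. Of the 71 genes, 28 share some exon sequence with another gene and 8 share over 10% of their exon length.

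Genes whose proteins act around these channels went both ways. Of 49 tested genes of calcium signalling (sensors, store pumps and release channels, mitochondrial uptake, calcineurin, NFAT and kinases), 13 rose, 14 fell and 22 were not called (55.1% called, beside 33.4% of all genes tested), with a median log2 difference of -0.08; with median centring 7 rose and 32 fell. The store sensor Stim1, which opens Orai pores, had 8393 and 8460 against 7042 and 7350 (-0.23, SE 0.04, adjusted p = 0.00753), while Stim2 was not called (-0.15, SE 0.05, adjusted p = 0.0604). The 4 increases with the smallest adjusted p were Atp2a1, a calcium pump of the sarcoplasmic reticulum, with 56.0 and 86.8 against 3868 and 3847 (54.0-fold), Plcg2 (5.59-fold) and Plcb2 (2.52-fold), phospholipases that start store release, and the release channel Itpr1 (1.58-fold). Saraf, which limits STIM activity, fell by 0.48 on the log2 scale, the calcineurin subunit Ppp3cc by 0.52, the kinase Camk4 by 0.59 and the transcription factor Nfatc3 by 0.56.

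Of 48 tested channel genes outside the chosen symbols, 15 rose, 5 fell and 28 were not called (41.7% called, beside 33.4% of all genes tested). Their median was 0.32. With median centring 11 rose and 12 fell. The proton channel Hvcn1 had 4507 and 4226 against 13323 and 13868, 3.11-fold higher (log2 difference 1.64, SE 0.05, adjusted p = 3.42e-06). Clic4 was 1.96-fold, Tmem63a 1.74-fold and Ttyh3 1.58-fold higher. Clic1 fell by 0.40 on the log2 scale, the lysosomal two-pore channel gene Tpcn1 by 0.37, and Lrrc8a and Lrrc8c, subunits of the volume-regulated anion channel, by 0.54 and 0.44.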

How the data were processed

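Polyadenylated RNA of mouse CD8+ T cells gave 4 libraries, 2 per label. The submitters' processing notes name the mm10 build, DESeq2, StringTie 2.1.4, HISAT2 2.2.1 and Trim Galore 0.4.4. Settings, annotation, strand use and the version of DESeq2 were not given in the sources used here. A deposited table has, per the file headers, normalized counts of each library (a signal with decimals), and the authors' log2 fold change, Wald score, p-value and adjusted p-value. All values were whole multiples of 1 step within 0.01 reads (100%), so reads were recovered. The size factors were 0.983, 0.979, 1.02 and 1.03. The libraries of a pair differed by more than sampling noise (chi-square per degree of freedom 21.7 labelled WT, 6.45 labelled knockout).

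The design foresaw edgeR for whole-number counts; the table held normalized values, so limma 3.58.1 in R 4.3.3 (eBayes with trend and robust variance, two-sided) was run on log2(normalized count + 1) for 18378 genes with at least 10 in at least 2 libraries, with Benjamini-Hochberg adjustment over all of them and a threshold of 0.05. All 71 channel genes passed that filter. Of them, 1 is counted but not reported by name here. The script was tested on simulated data. A count of 0 allows 3 reads per library at a 95% level, which covers counting error only and takes the recovered whole numbers as counted reads. Lengths are union exons of GENCODE M21, in which 95.2% of names matched once, and sequences are from RefSeq.

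The members and lists were chosen with earlier results of these data known. Genes were named as lymphocyte channels, the 10 largest called changes each way with a mean of at least 100 in the higher group, the 5 highest per-length levels per group, the 3 genes on each side of the threshold, genes at 0 in 1 group, and the 4 genes with the smallest adjusted p each way of the calcium and other channel lists; the remaining called members, Clcn4, Cacna1a, Kcns1, Kcnma1, Kcnq1ot1, Stim1 and Stim2 were added after their values were seen. Alternatives were other pseudocounts (0.1 and 10), no filter, a minimum of 50, median centring, no robust variance, a replicate block, each library left out, and, on recovered reads, edgeR 4.0.16 (TMM and upper-quartile) and DESeq2 1.42.0.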

Additional observations from a re-analysis of the deposited data

How the results depend on the processing

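The replicate numbers are shared between groups, but the labels do not say that they pair the libraries. The differences between replicates 1 and 2 correlated at 0.0089 across 12283 genes. This shows no sign of pairing, but 1 difference per group cannot exclude it. With the replicate block, 26 channel genes were higher and 5 lower, with 4 calls lost (Trpc4ap, Cacnb1, Grin3b, Scn2b). Median centring gave 15 channel genes lower and upper-quartile factors 8; for all genes centring gave 2389 higher and 7210 lower beside 3662 and 2469, for calcium signalling 7 and 32, and for the other channels 12 lower. Leaving out 1 library, with a lone library assumed to vary like the other group, gave 13 to 30 channel genes higher and 2 to 6 lower, 1309 to 4137 and 630 to 2759 of all genes, 4 to 14 and 5 to 15 of the calcium genes, and 6 to 18 and 1 to 5 of the other channels. Chosen after seeing the data, a mean of at least 20 in both groups gave 24 and 5, and genes encoding a subunit 28 and 5. With the edgeR TMM fit on recovered reads 30 and 6 channel genes were called (3691 and 2652 of all genes) and with DESeq2 27 and 6.

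Direction turned for these named genes. With centring Kcna3 was at -0.0017, Trpc1 at -0.29, Clcn3 at -0.047, Trpc4ap at -0.15 and Kcnk3 at -0.10, and with upper-quartile factors Trpc1 at -0.067. Without 1 library Orai2 ranged from -0.043 to 0.022, Trpc1 from -0.11 to 0.13, Kcnj13 from -0.16 to 0.84 and Kcnk3 from -0.40 to 0.81. Uncalled genes described above only by count turned too, among them Kcnmb4 (-0.58 to 0.088 without knockout replicate 1) and Cacnb4 (0.52 to -0.38 without knockout replicate 2). The cause was not tested. The 2 libraries per group limit every p-value here to the spread of these libraries. The authors' deposited table had an adjusted p under 0.05 with 26 channel genes higher and 5 lower; 31 were called the same way here and 4 only here (Trpv4, Cacnb1, Grin3b, Scn2b).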

Other observations

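Some channel symbols under the mean of 20 had reads in the libraries of 1 label alone; they were chosen after their values were seen. Cacna1b, the N-type calcium pore, had 0 and 0 against 27.4 and 20.4 (the pair labelled WT first), at least 7.83-fold higher, and Kcng1, a silent potassium subunit, had 0 and 0 against 27.4 and 26.3, at least 8.78-fold higher. Cacnb2, described above, was at least 10.5-fold higher. Cacna1f, an L-type pore reported in T cells, had 0 reads against 6.86 and 5.84 and was too low to be tested. In the other direction, Kcnmb2, an accessory subunit of the Kcnma1 channel, had 5 and 7 reads against 0 and 0 and was also too low to be tested. Among channel genes outside the chosen symbols, Trpa1, a TRP channel, had 0 and 0 against 57.8 and 66.2. Chrnd, a nicotinic receptor subunit, had 0 and 0 against 24.5 and 34.1.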
